A study of Mus musculus with 6 samples.

Results

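The transcription factors followed here direct innate lymphoid cell (ILC) and natural killer (NK) cell development. Rora, Nfil3, Tox, Tox2, Tbx21 and Eomes were picked by gene symbol and are 6 of the 28048 genes in the count matrices. Single-cell RNA was read by the sci-RNA-seq3 method, where RNA of fixed cells gains barcodes over rounds in plates and a unique molecular identifier (UMI) counts each captured RNA. Bone marrow progenitors enriched for CD117, pooled from 6 to 8 mice of 2 to 4 months with males and females combined, were grown on OP9-DL1 stroma, which presents a Notch ligand. They were sorted as DN1 (CD44+ CD25−), DN2a (CD44+ CD25+, Bcl11b reporter off) or DN2b (CD44+ CD25+, reporter on) and cultured again for 4 days, with Flt3-L and IL-7. The study also lists IL-2, SCF and IL-15 for its experiments on ILC and NK output, and it names this single-cell experiment among them. All mice were C57BL/6 carrying a YFP reporter on both Bcl11b alleles. WT mice had no other change, and ΔTE mice lacked the distal timing enhancer of Bcl11b on both alleles. There was 1 library for each of 6 conditions, without replicates, so no test was made.

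These factors act at successive steps. Nfil3, a basic leucine zipper protein, and Tox, a high mobility group box protein, are needed early, when lymphoid progenitors become restricted to innate fates. Rora, a nuclear receptor, is needed for group 2 ILCs, while the T-box factors Tbx21 (T-bet) and Eomes drive NK cells and group 1 ILCs. Bcl11b, a zinc finger protein, restrains such innate programs as T-cell progenitors commit.

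A cell had to show 200 genes or more, no more than 2000 UMIs, and mitochondrial UMIs of 30% or less. Cells with 3 or more collagen UMIs (Col1a1, Col1a2 and Col3a1), which carry the RNA of stroma, were left out unless stated. This left 10775, 18287 and 4856 cells for WT DN1, DN2a and DN2b and 10211, 11118 and 3372 for ΔTE, with 1697236 to 8168145 UMIs per library. No barcode was shared between libraries (0). The WT DN2a library stood apart: its median cell had 13.3% mitochondrial UMIs against 20.8% to 23.9% in the others, and it gave 1202 of the 2052 collagen cells. Every ratio of DN2a cells between genotypes rests on this library. Of barcodes within the limits on genes and UMIs, the mitochondrial limit removed 2.59% in WT DN2a and 26.8% in ΔTE DN2a. It removed 40.9% in WT DN2b and 56.6% in ΔTE DN2b, and 35.3% and 30.6% in WT and ΔTE DN1. The cells compared between genotypes were thus not kept in equal shares. Levels are UMIs per 1000000 of the library (CPM), with exact Poisson 95% intervals that cover counting error only. Each library came from 3 reverse-transcription wells, technical parts of 1 culture. In sums over a library, fewer cells of a type and less RNA per cell cannot be told apart.

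The genotype labels were first set against Bcl11b itself. Bcl11b stood at 238, 579 and 884 CPM in WT DN1, DN2a and DN2b cultures and at 90.3, 270.0 and 544 in ΔTE. It was lower in ΔTE from every sorted stage, and in each genotype it was lowest after DN1.

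Rora was measured by 1729 UMIs in 1313 cells. Its level was 23.7 (19.9 to 28.0), 49.0 (44.3 to 54.0) and 126 (112 to 140) CPM in WT DN1, DN2a and DN2b cultures, and 23.3 (19.6 to 27.6), 69.5 (62.9 to 76.5) and 183 (163 to 204) in ΔTE. Rora was thus lowest in cultures begun from DN1, higher from DN2a and highest from DN2b in both genotypes, with no overlap of wells between neighbouring stages. In WT the log2 ratio was 1.05 from DN1 to DN2a (95% interval 0.76 to 1.34) and 1.36 from DN2a to DN2b (1.14 to 1.57). In ΔTE it was 1.58 (1.29 to 1.87) and 1.39 (1.18 to 1.61).

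Between genotypes, Rora did not differ beyond counting error after DN1, with a ΔTE/WT log2 ratio of -0.02 (-0.38 to 0.33). It was higher in ΔTE after DN2a, by 0.50 (0.30 to 0.71), and after DN2b, by 0.54 (0.31 to 0.77). The wells of both genotypes overlapped after DN1, with ΔTE wells at 13.2, 28.1 and 30.7 and WT wells at 20.6 to 25.9. The lowest ΔTE well lay below all WT wells and the others lay above them. After DN2a the ΔTE wells lay at 55.3 to 77.9 and the WT wells at 45.0 to 51.7, and after DN2b at 165 to 211 and 116 to 130.2. Both of these ratios depended on which cells were kept. With collagen cells in the sums, the DN2a ratio was 0.16, and with a limit of 20% mitochondrial UMIs, which left 1624 WT and 946 ΔTE cells, the DN2b ratio was 0.09 (-0.30 to 0.48).

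Tox was the best measured member, with 24221 UMIs. Its level was 723 (701 to 745), 718 (700 to 736) and 927 (890 to 964) CPM in WT DN1, DN2a and DN2b cultures, and 759.7 (738 to 782), 906 (882 to 930) and 1097 (1048 to 1148) in ΔTE. Tox varied far less among libraries than Rora did, and its highest level in each genotype followed DN2b. The ΔTE/WT log2 ratio was 0.07 (0.01 to 0.13) after DN1, 0.34 (0.28 to 0.39) after DN2a and 0.24 (0.16 to 0.33) after DN2b. These intervals exclude 0, but the wells did not separate. Of the ΔTE DN2a wells, 1 held 611 CPM, below the WT wells at 688 to 736, and the others held 1001 and 1012. Leaving out 1 well at a time moved the DN2a ratio between 0.17 and 0.49. After DN2b, 1 ΔTE well at 878 likewise lay below all WT wells (893 to 989.97), and the others lay at 1216 and 1223.

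Tox2, a close relative of Tox in the same high mobility group box family, had 369 UMIs. Its level was 2.39 (1.31 to 4.01), 6.98 (5.29 to 9.04) and 20.1 (15.1 to 26.3) CPM in WT DN1, DN2a and DN2b cultures, and 5.999 (4.18 to 8.34), 21.5 (18.0 to 25.6) and 48.3 (38.4 to 60.0) in ΔTE. Like Rora, it was ordered DN1, DN2a, DN2b in each genotype, and unlike Rora it was higher in ΔTE after all 3 sorted stages. The ΔTE/WT log2 ratio was 1.33 (0.40 to 2.34) after DN1, from 35 and 14 UMIs, 1.63 (1.16 to 2.10) after DN2a and 1.26 (0.75 to 1.79) after DN2b. Every ΔTE well lay above every WT well of the same stage. After DN1 the ΔTE wells ranged from 4.60 to 6.88 and the WT wells from 1.25 to 3.94, so each well there rests on few UMIs. The limit of 20% mitochondrial UMIs took the DN2b ratio to 0.71 (-0.22 to 1.62), the DN1 ratio to 0.90 (-0.57 to 2.48) and the DN2a ratio to 2.02 (1.503 to 2.55).

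Nfil3 had 257 UMIs, so its levels are less exact. Its level was 5.63 (3.87 to 7.90), 7.47 (5.71 to 9.59) and 6.07 (3.47 to 9.86) CPM in WT DN1, DN2a and DN2b cultures, and 6.86 (4.90 to 9.34), 13.8 (10.97 to 17.1) and 14.7 (9.53 to 21.7) in ΔTE. The 3 WT levels did not differ beyond counting error, and the DN2a and DN2b cultures of ΔTE were the highest. The ΔTE/WT log2 ratio was 0.29 (-0.42 to 1.00) after DN1, 0.89 (0.39 to 1.39) after DN2a and 1.28 (0.32 to 2.28) after DN2b, the last from 25 and 16 UMIs. The ΔTE wells lay above the WT wells after DN2a and DN2b and overlapped them after DN1.

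The T-box factors were close to the limit of detection. Tbx21 had 7, 9 and 1 UMIs in WT DN1, DN2a and DN2b cultures and 5, 10 and 6 in ΔTE. Eomes had 0, 1 and 3 in WT and 0, 4 and 5 in ΔTE. With 0 UMIs, the upper limit of the Eomes level after DN1 was 0.629 CPM in WT and 0.632 in ΔTE. The only interval of a genotype ratio that excluded 0 for either gene was that of Tbx21 after DN2b, from 6 and 1 UMIs, at 3.22 (0.18 to 8.74). Its wells overlapped, and the intervals of the Tbx21 levels overlapped for every pair of libraries. Eomes in ΔTE DN2b, at 2.95 CPM (0.957 to 6.87) from 5 UMIs, lay above the upper limits of both DN1 libraries and of WT DN2a (0.682). Its wells there, at 1.78 to 4.94, lay above those of ΔTE DN1 (0) and ΔTE DN2a (at most 1.04). Eomes was found in 11 cells, below the 15 cells required of a gene in the library totals.

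**Figure D1:**
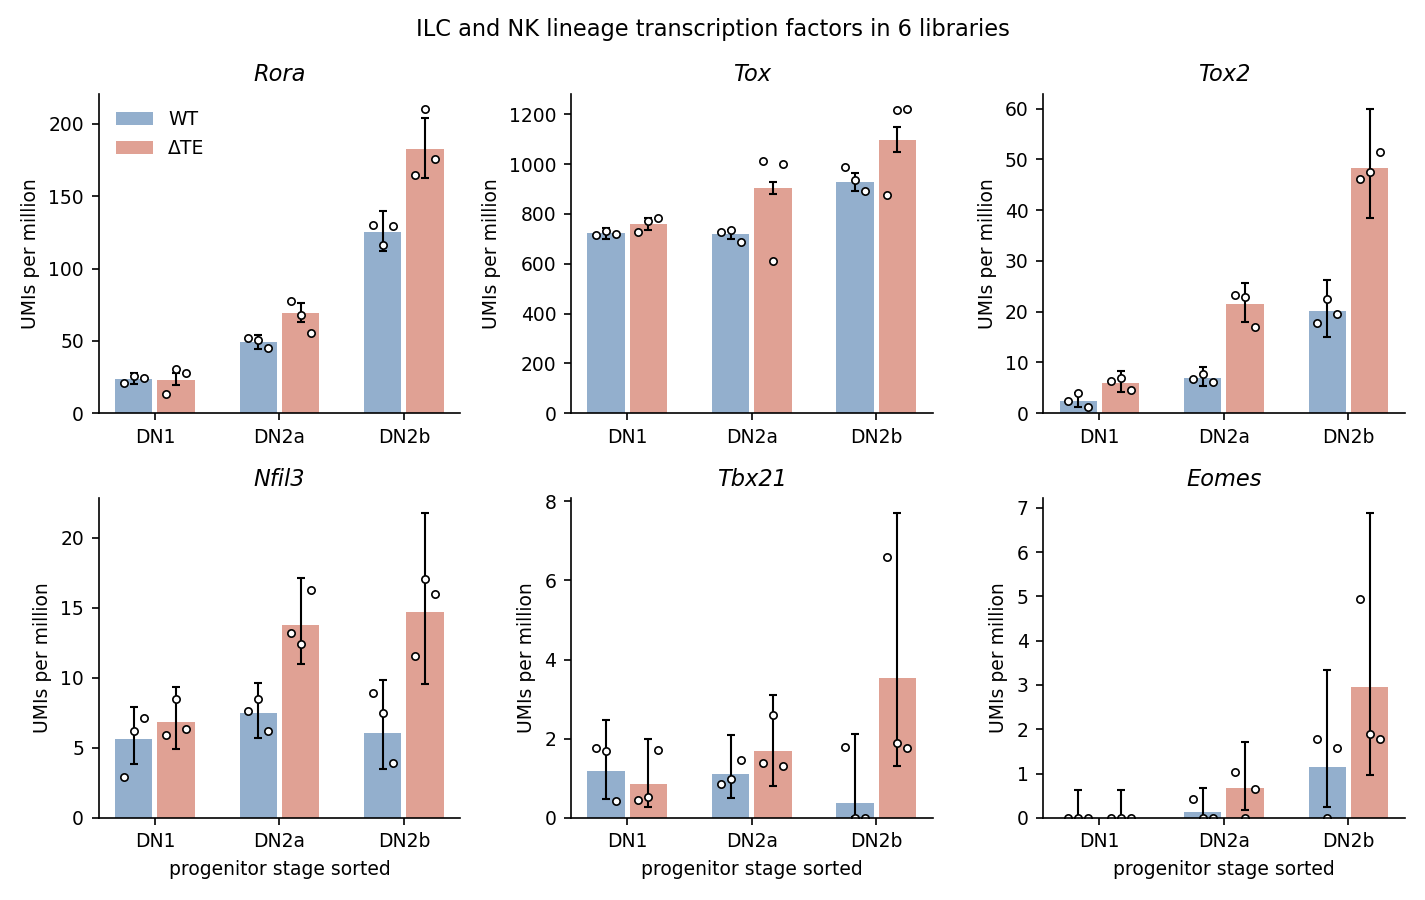
Bars give the level of each factor in CPM (vertical axes starting at 0) for WT and ΔTE cultures begun from each sorted stage, lines give the exact Poisson 95% interval and open points the 3 wells. Rora and Tox2 are ordered DN1, DN2a, DN2b in both genotypes, and Tox2 wells of ΔTE lie above those of WT at each stage.

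Across all genes with at least 50 UMIs in the libraries compared, a ratio past 1.5-fold served as a threshold of size. After DN1, 0 of the 3 members with that depth were past it and higher in ΔTE, against 1.86% of all genes, and 0 had wells fully above those of WT, against 9.01%. Tox2, with 35 ΔTE and 14 WT UMIs there, fell just short of that depth and was not counted. Its log2 ratio of 1.33 was past the threshold, and its wells lay apart. After DN2a, 2 of 4 were past it (Tox2 and Nfil3), against 1.86%, and the wells of 3 of 4 (Rora, Tox2 and Nfil3) lay apart, against 3.05%. With collagen cells kept, Nfil3 was at 0.49 and no longer past the threshold. The median log2 ratio of all genes was -0.15 there, so relative to that median Rora was 0.65 higher, which is past the threshold, and Tox 0.48, which is not. After DN2b, 1 of 3 was past it (Tox2), against 4.25%, and the wells of 2 of 3 (Rora and Tox2) lay apart, against 8.22%. Nfil3, with 25 ΔTE and 16 WT UMIs there, was below the depth and not counted, though its wells also lay apart and its ratio was past the threshold.

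The same threshold was applied between sorted stages. In WT, from DN1 to DN2a 2 of 4 members (Rora and Tox2) were past 1.5-fold higher, against 10.8% of genes, and from DN2a to DN2b the same 2 of 4, against 1.43%. In ΔTE, 3 of 4 were past it from DN1 to DN2a (Rora, Tox2 and Nfil3), against 5.52%, and 2 of 4 from DN2a to DN2b (Rora and Tox2), against 3.81%. Rora was thus past the threshold in all 4 of these steps. Tox2 was too, but in WT it had 14 UMIs after DN1 and 57 after DN2a. For that step it thus reached the floor of 50 UMIs only through its DN2a count, so the floor itself favours a higher call there. No floor at the level of the lower stage was applied between stages.

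The cells holding this RNA were next described by markers. Cells with collagen UMIs had a high Rora level, 245 (221 to 271) CPM over the 6 libraries. Within libraries this was 4.92 times the level of cells below 2 UMIs of every marker list (unmarked cells, which can hold 1 marker UMI) and higher in 6 of 6. Nfil3 was 3.42 times as high there, in 5 of 6 libraries. Tox was at 0.183 and Tox2, with 1 UMI, at 0.0672 of the unmarked level, and no UMI of Tbx21 or Eomes was found. By a threshold of 2-fold higher in all 6 libraries, 1 of 4 members with sufficient UMIs was past it (Rora), against 9.44% of genes. Past 2-fold lower in all 6 libraries were 2 of 4 (Tox and Tox2), against 2222 of 11322 genes. Rora and Nfil3 RNA was thus also high in cells with collagen RNA, where Tox and Tox2 were low. Collagen RNA that remained after the filter was 152 CPM in WT DN2a against 53.1 to 98.4 in the other 5 libraries. Its part in the Rora and Nfil3 levels was not tested, but without any cell holding a collagen UMI the DN2a ratio of ΔTE to WT was 0.70 for Rora and 1.13 for Nfil3.

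A class of 13851 cells had 2 or more UMIs from a list of 22 ILC and NK markers. The granule genes Gzma, Nkg7 and Gzmb made up 78.0% of the list's UMIs in these cells, so the class is mostly one of cells with granule RNA. In each library the members were compared with unmarked cells, and the observed UMIs were divided by those expected at the unmarked level. The ratio was 1.72 (1.60 to 1.85) for Rora and 1.94 (1.67 to 2.24) for Tox2, both higher in 6 of 6 libraries. It was 1.52 (1.24 to 1.84) for Nfil3, in 5 of 6, and 1.17 (1.15 to 1.198) for Tox, in 6 of 6. None of these 4 members (0) was past 2-fold in all libraries, against 0.0796% of genes. Without Gzma and Gzmb in the list the class held 4257 cells, and unmarked cells were set by the shorter list. The ratio was then 2.21 (1.99 to 2.44) for Rora, 1.89 (1.48 to 2.37) for Tox2 and 1.31 (1.26 to 1.36) for Tox. For Nfil3 it was then 1.40 (0.974 to 1.94), higher in 4 of 6 libraries, an interval that includes 1.

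In cells with T-lineage markers, Rora, Tox and Tox2 were lower than in unmarked cells. This class, defined by 6 genes and led by Cd3g, which encodes a chain of the T-cell receptor complex, had 0.432 of the unmarked Rora level (lower in 5 of 6 libraries) and 0.717 of the Tox level (6 of 6). Tox2 had 3 UMIs there where 9.57 were expected, and Nfil3 had 6 where 5.38 were expected. Bcl11b was 1.65 times as high in the same cells, in 6 of 6 libraries. Past 2-fold lower in all 6 libraries was 1 of 4 members in this class (Tox2), against 465 of 10897 genes. The ΔTE DN1 library held 20 cells of the class with 0 Rora UMIs, so its count as lower for Rora carries little weight. In cells with myeloid markers Tox was at 0.539 and Rora, from 5 UMIs, at 0.393, both lower in 5 of 6 libraries. Nfil3 had 6 UMIs there against 2.34 expected, and Tbx21 3 against 0.493. The DN2b libraries of WT and ΔTE held 8 and 5 myeloid cells, each with 0 Rora UMIs, so the counts of libraries carry little weight in this class. Past 2-fold lower in all 6 libraries was 1 of 4 members (Tox2, with 0 UMIs), against 667 of 10904 genes.

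A narrower class gave the clearest contrast, and it was chosen after seeing the data. Icos encodes a costimulatory receptor carried by ILC2s, and Il2rb a receptor chain for IL-2 and IL-15 that NK cells need. Cells with a UMI of either gene and of no T, myeloid or collagen class numbered 563. This gate replaced the 22-gene list, so the unmarked cells here were those with neither gene, and they could hold Gzma, Gzmb or Nkg7 RNA. Rora was at 878 CPM in the 563 cells, 9.09 (8.06 to 10.2) times that expected from these unmarked cells, and higher in 5 of 6 libraries. Tox2 was 5.95 (4.38 to 7.92) times as high, Nfil3 3.01 (1.44 to 5.53) and Tox 2.82 (2.63 to 3.02), each in 5 of 6 libraries. Even Tbx21, with 6 UMIs, was 10.2 (3.76 to 22.3) times as high. Of the 2 receptor genes, Icos was the one more enriched in Rora cells, at 13.5 times the UMIs expected from cells of the same libraries without Rora, in 5 of 6 libraries. Il2rb was at 2.44 (1.59 to 3.58), in 4 of 6, and WT Rora cells held 1 UMI of it. The WT DN1 library, with 10 cells holding either receptor RNA, had 0 Rora UMIs in them. Including cells of mixed class, 580 cells, 0.989% of the total, held 16.3% of all Rora UMIs, 13.0% of Tox2 and 3.46% of Tox.

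The receptor genes also differed by genotype. Il2rb had 0, 2.57 and 6.07 CPM in WT DN1, DN2a and DN2b cultures and 2.06, 11.9 and 60.1 in ΔTE. Icos had 2.05, 7.47 and 44.0 in WT and 2.91, 15.5 and 119.6 in ΔTE. Both were higher in ΔTE after DN2a and DN2b, with wells apart. Inside the cells with either RNA, Rora stood at 1027 (723 to 1416) and 950.2 (722 to 1228) in WT DN2a and DN2b and at 919.5 (727 to 1148) and 779 (634 to 948) in ΔTE. Those levels were similar within counting error in the 4 libraries. The makeup of these cells differed, with 61 Icos and 21 Il2rb UMIs in WT DN2a and 116 and 16 in WT DN2b. In ΔTE these were 92 and 71 after DN2a and 203 and 102 after DN2b, so the levels may not be those of like cells. With these cells left out, the ΔTE/WT log2 ratio was 0.36 after DN2a and 0.34 after DN2b for Rora, and 1.55 and 0.99 for Tox2.

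Genotype ratios were also taken within classes. In cells past the 22-gene list, Rora had a ΔTE/WT log2 ratio of 0.58 (0.26 to 0.91) after DN2a and 0.29 (-0.03 to 0.62) after DN2b, and without Gzma and Gzmb in the list 0.82 and 0.94. In unmarked cells it was 0.36 (0.08 to 0.63) and 0.42 (0.08 to 0.77). Tox2 was higher by 1.34 (0.62 to 2.12) and 0.95 (0.20 to 1.73) in the list class and by 1.65 (1.03 to 2.30) and 1.15 (0.39 to 1.92) in unmarked cells. Over the alternatives, Tox2 in the list class ran from 1.34 to 2.04 after DN2a and from 0.69 to 1.05 after DN2b. With the gate of the list at 1 UMI, Tox2 in the cells left unmarked was higher by 1.36 and 1.25. Tox was higher by 0.38 (0.29 to 0.47) in the list class and 0.26 (0.19 to 0.33) in unmarked cells after DN2a, and by 0.33 (0.18 to 0.48) and 0.09 (-0.03 to 0.20) after DN2b. Nfil3 in the list class was at 0.52 (-0.61 to 1.72) after DN1 and 1.12 (0.27 to 2.03) after DN2a. After DN2b it was at 2.50 (0.31 to 5.72), from 11 and 2 UMIs. Without Gzma and Gzmb in the list, Nfil3 was at 1.84 after DN1 and 0.22 after DN2a. In collagen cells the Rora ratio was -0.39 (-1.35 to 0.49), -0.39 (-0.80 to -0.0025) and 0.24 (-1.34 to 1.55) after DN1, DN2a and DN2b, the last from 6 ΔTE UMIs. Tox there was at 1.06 (0.03 to 2.08) after DN1 and -0.38 (-0.94 to 0.14) after DN2a, with 0 ΔTE and 14 WT UMIs after DN2b. Nfil3 was at 1.64 (-1.48 to 5.22) after DN1 and -1.04 (-2.59 to 0.26) after DN2a, with 0 and 2 UMIs after DN2b. Whether the classes differ from each other was not tested.

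**Figure D2:**
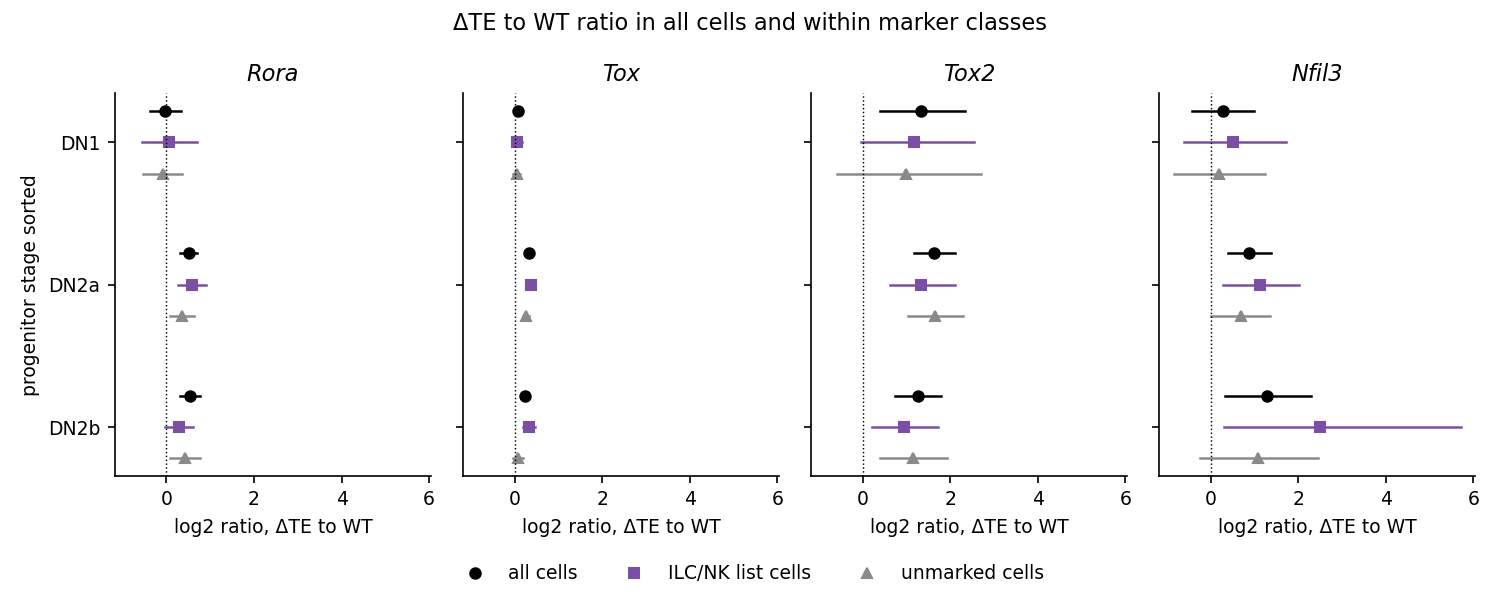
Log2 ratio of ΔTE to WT (horizontal axis, exact 95% interval from counts as a line) for Rora, Tox, Tox2 and Nfil3 by sorted stage, in all cells, in cells past the ILC and NK marker list and in unmarked cells. Tox2 points lie to the right of 0 in each class and stage, and Rora points lie near 0 after DN1.

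The company these factors keep in single cells was read from cells with a UMI of a member, set against cells of the same library with none. Ranked among genes with at least 50 UMIs in the member's own cells, which favours genes that are high there, the leading 5 in 1313 cells with Rora were Hlf at 22.8 times the expected UMIs, Homer2 at 18.3, Ikzf3 at 16.6, Icos at 13.5 and St3gal6 at 9.87. Hlf is a basic leucine zipper factor related to Nfil3, and Ikzf3 is a zinc finger factor of the Ikaros family. Each was higher in 6 of 6 libraries except Icos, in 5, and in cells free of collagen UMIs the ratios were 22.9, 19.8, 17.03, 13.9 and 9.86. Cells with Tox, 16134 in number, were led by Sv2b (4.59), Hlf (4.27), Icos (4.13), Homer2 (3.76) and St3gal6 (3.53). An order free of that choice, made after seeing the data, took genes with at least 5 UMIs expected from the other cells. Rora cells were then led by Icos (13.5), St3gal6 (9.87), Kif26b (9.46), Kcnma1 (9.35) and Ebf1 (8.30), and Tox cells by Sv2b (4.59), Stab2 (4.39), Hlf (4.27), Icos (4.13) and Klrc1 (4.13). Icos was in both orders for both factors.

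Among 334 cells with Tox2, Rora itself came first in both orders, at 8.55 (7.19 to 10.1) times the expected UMIs. Hmga2, a chromatin protein of stem and progenitor cells, followed at 8.30, then the basic leucine zipper factor Maf at 6.06, the chemokine receptor gene Ccr2 at 5.37 and Lztfl1 at 4.54, all higher in 6 of 6 libraries. Cells with Nfil3, 242 in number, were led by Gzmb (1.75), Tmsb4x (1.60), Tmtc2 (1.55), Inpp4b (1.55) and Zbtb16 (1.52). Only 335 genes had enough UMIs to be ranked there, against 561 for Tox2, 3508 for Rora and 9727 for Tox, so the leading ratios of the members cannot be compared. By expected UMIs, Tox2 cells had Rora, Hmga2, Icos (6.33), Maf and Chd7 (5.50) in the lead. Nfil3 cells had Fam129a (3.71), Cxcl12 (3.67), Fn1 (3.36), Col6a2 (2.94) and Cnnm2 (2.75), of which Cxcl12 (0.803) and Fn1 (0.618) were below 1 in cells free of collagen UMIs. Below the depth of 50 UMIs, Nfil3 cells held Il2rb at 3.68 (1.35 to 8.02), Tox2 at 2.93 (1.18 to 6.04), Icos at 2.77 (1.27 to 5.26) and Id2 at 2.31 (1.45 to 3.4997) times the expected UMIs. Tbx21 and Eomes, with under 100 UMIs each, were not examined this way.

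Rora, Tox and Tox2 were enriched in each other's cells. In Rora cells Tox2 was at 7.75 (6.24 to 9.52), Tox at 2.41 (2.30 to 2.54) and Nfil3 at 2.38 (1.38 to 3.804) times the expected UMIs, each in 6 of 6 libraries. In Tox2 cells Tox was at 2.69 (2.45 to 2.95), and in Tox cells Rora was at 2.69 (2.53 to 2.87) and Tox2 at 3.00 (2.62 to 3.42). In Tox cells Nfil3 was at 1.33 (1.08 to 1.61), higher in 3 of 6 libraries, with 0.815 (0.546 to 1.17) in WT, in 0 of 3, and 1.77 (1.38 to 2.22) in ΔTE, in 3 of 3. Tbx21 in Tox cells was at 0.947 (0.489 to 1.65) and Eomes, from 8 UMIs, at 2.99 (1.29 to 5.89). Nfil3 cells held 0 UMIs of Tbx21 and Eomes, where 0.224 and 0.0917 were expected. The link of Rora and Tox2 was seen in both genotypes, with Tox2 at 9.60 (6.57 to 13.6) times the expected UMIs in WT Rora cells and 7.02 (5.34 to 9.06) in ΔTE. The intervals of the 2 genotypes overlap.

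Regulators of ILC development were placed likewise. In Rora cells Maf was at 7.61, Id2, an inhibitor of E proteins that marks all ILCs, at 5.95, Ahr at 3.48, Gata3, which ILC2s require, at 3.07 and Zbtb16, which encodes PLZF of the ILC precursor, at 2.80 times the expected UMIs. Without any cell holding a collagen UMI, Maf was at 8.33 and Id2 at 6.28. In Tox2 cells the same genes were at 6.06, 3.28, 4.00, 3.01 and 3.26. They were the 5 most enriched of a list of 23 further regulators, counting those with at least 5 expected UMIs, and others of the list lay below 1. The interval lay above 1 for 10 of 19 and below 1 for 4 in Rora cells (Bach2, Stat5a, Stat5b and Gfi1), against 10.1% and 10.4% of 9469 genes. In Tox2 cells it lay above 1 for 8 of 16 and below 1 for 5 (Bcl11b, Zeb2, Bach2, Stat4 and Stat5a), against 6.17% and 5.29% of 6479 genes. Bcl11b was at 0.922 (0.828 to 1.02) in Rora cells and 0.695 (0.531 to 0.892) in Tox2 cells, and Cd3g was at 0.592 and 0.582. Granule genes divided: in Rora cells Gzmb was at 4.89 (4.56 to 5.23), and Gzma at 0.668 (0.610 to 0.729) was lower in all 6 libraries. Collagen RNA in Rora cells was at 2.54 (Col1a1), 2.93 (Col1a2) and 3.27 (Col3a1). In Tox2 cells it was at 0.168, 0.234 and 1.88 (0.61 to 4.38), from 1, 2 and 5 UMIs.

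**Figure D3:**
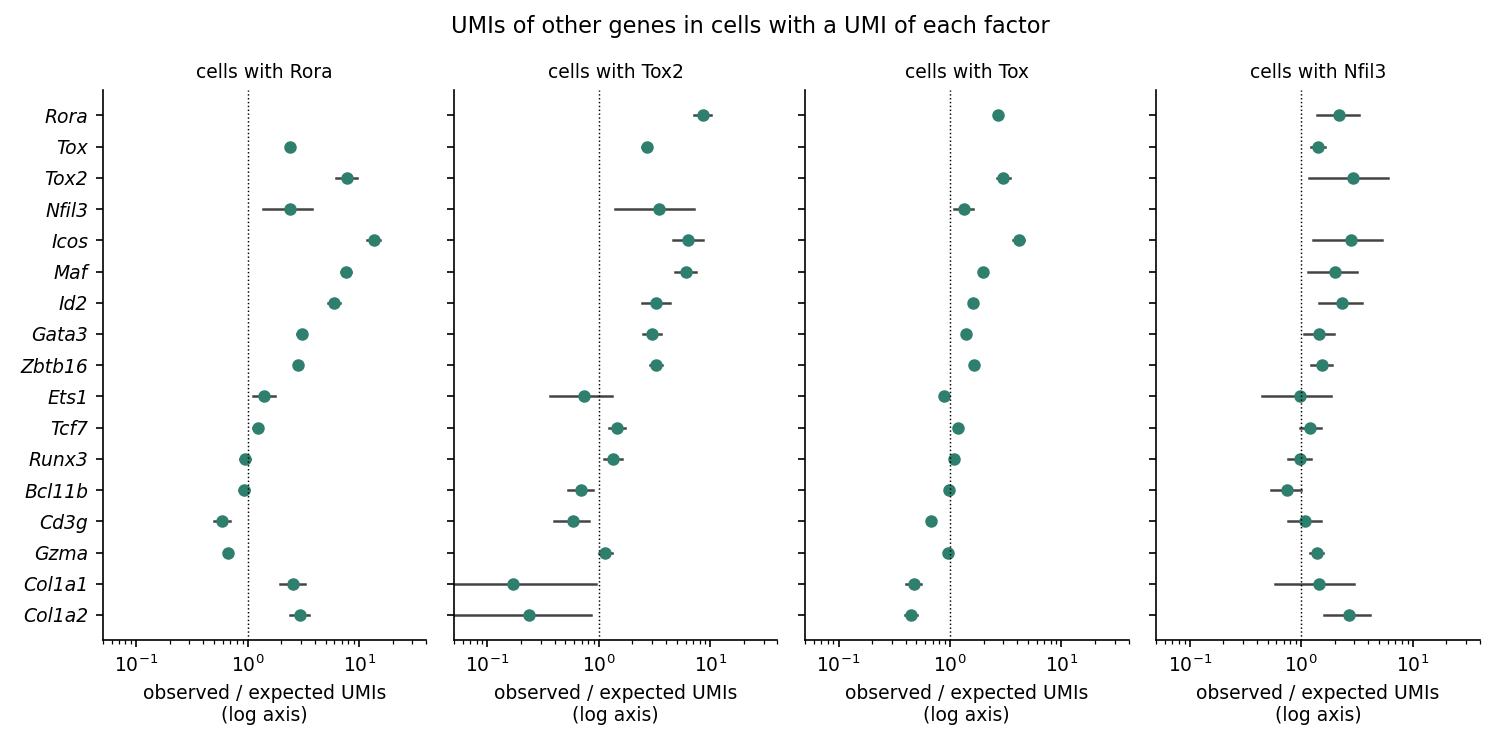
UMIs of other genes observed in cells with a UMI of Rora, Tox2, Tox or Nfil3, divided by those expected from cells of the same libraries without it (horizontal log axis, exact Poisson 95% interval as a line). Icos, Maf, Id2, Gata3 and Zbtb16 lie right of 1 in the cells of each factor, while Cd3g lies left of 1 with Rora, Tox2 and Tox.

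Other genes of the innate program were counted from fixed lists. Over all genes, 1.86%, 1.86% and 4.25% were past 1.5-fold higher in ΔTE after DN1, DN2a and DN2b, and 1.88%, 6.66% and 4.52% lower. Of 23 further regulators of ILC and NK cells, 19 had enough UMIs. After DN1, 1 was past 1.5-fold higher in ΔTE (Gata3) and 2 were lower (Bcl11b and Bach2). After DN2a, 3 were higher (Id2, Zbtb16 and Maf) and 3 lower (Bcl11b, Stat4 and Id3), and after DN2b 4 were higher (Id2, Zbtb16, Ahr and Maf) and 2 lower (Bcl11b and Zeb2). Their median log2 ratios were 0.03, -0.04 and 0.02, beside 0.00, -0.15 and -0.02 over all genes. The wells of 6, 6 and 7 of the 19 lay fully above those of WT, against 9.01%, 3.05% and 8.22% of all genes. The wells of 5, 6 and 4 lay fully below, against 8.54%, 19.7% and 9.95%. Wells of these regulators were thus apart in both directions, and the median of the list was near that of all genes. Relative to the median of all genes after DN2a, Gata3 (0.61) and Ahr (0.62) were also past 1.5-fold higher, and Stat4 (-0.58) was not past it. The equal counts after DN2a thus hold only without that shift. The wells of Id3 overlapped after DN2a. In collagen cells Id3 was at 14.3 and Maf at 5.79 times the unmarked level, each higher in 6 of 6 libraries. Zbtb16 stood at 271, 260.3 and 205 CPM in WT DN1, DN2a and DN2b and at 395, 511 and 424 in ΔTE. Id2 stood at 29.8, 34.5 and 61.5 in WT and at 42.5, 64.3 and 199.7 in ΔTE. Both were higher in ΔTE at each stage, with wells apart.

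Of 16 NK and ILC1 effector genes, 4 of 8 with enough UMIs were past 1.5-fold higher in ΔTE after DN1, 4 of 10 after DN2a and 7 of 9 after DN2b, against 1.86%, 1.86% and 4.25% of all genes, and 0 were lower. Several of these, such as Klrk1 after DN2b (53 ΔTE and 8 WT UMIs), reached 50 UMIs only through their ΔTE counts, so the floor itself favours higher genes. With a floor of 50 UMIs expected at the WT level, chosen after seeing the data, the counts were 2 of 6, 1 of 7 and 3 of 5 (Gzma, Gzmb and Cd160), against 1.27%, 1.31% and 3.10% of all genes. The 7 after DN2b were Gzma, Gzmb, Klrd1, Klrk1, Il2rb, Xcl1 and Cd160. Ifng, a target of T-bet, had 1 UMI in the 6 libraries together. Of 10 ILC2 effector genes, 0 of 3, 2 of 4 (Icos and Il18r1) and 3 of 4 (Icos, Il9r and Il18r1) were past it, and by the WT floor 0 of 3, 2 of 4 and 2 of 3. Of 21 relatives of the members by family, 5 had enough UMIs in each of these comparisons. Among them Hlf was higher after DN2b, at 25.3 against 7.59 CPM, though it too was below the WT floor, and Dbp and Tef after DN2a and Tef after DN2b were lower. Several calls in these lists were marginal. Among the higher ones, Tnfsf10 (0.59) and Gzma (0.62) after DN1 were close to the threshold, and Klrd1 after DN1 (-0.17 to 1.52) and Il9r after DN2b (-0.05 to 1.40) had intervals that include 0 and wells that overlap. Relative to the median of all genes, Dbp (-0.45) and Tef (-0.46) after DN2a and Tef after DN2b (-0.58) were not past it, nor was Stat4 after DN2a (-0.58). On the same scale Gata3 (0.61), Ahr (0.62) and Il17rb (0.69) after DN2a became past it and higher.

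The loci lie on separate parts of the genome. By GENCODE M21 on GRCm38, matched by Ensembl identifier, Rora (ENSMUSG00000032238) spans 734.5 kb of chromosome 9, Tox 305.2 kb of chromosome 4 and Tox2 121.0 kb of chromosome 2, while Nfil3 spans 13.9 kb of chromosome 13, Tbx21 17.3 kb of chromosome 11 and Eomes 7.9 kb of chromosome 9. Levels were not compared between genes, since a long gene can be primed at more sites. Rora, Nfil3 and Tox2, the members whose ΔTE wells lay apart after DN2a, are shown with 300 bases of promoter from RefSeq on GRCm38.p6, from 250 bases before the start to 50 after. Of the 6 members, 5 matched the RefSeq table, and Tox2 has 5 entries, of which the one nearest the GENCODE start is given. Searches on both strands covered the ROR half-site AGGTCA, the NFIL3 site TTACGTAA, the T-box site AGGTGTGA, a RUNX site TGTGGT, a TCF site CTTTGA and a GATA site AGATAA, with matches in capitals. The first line is chr9:68653536-68653835 (plus strand), the second chr13:52980990-52981289 (minus strand) and the third chr2:163202877-163203176 (plus strand).
Rora: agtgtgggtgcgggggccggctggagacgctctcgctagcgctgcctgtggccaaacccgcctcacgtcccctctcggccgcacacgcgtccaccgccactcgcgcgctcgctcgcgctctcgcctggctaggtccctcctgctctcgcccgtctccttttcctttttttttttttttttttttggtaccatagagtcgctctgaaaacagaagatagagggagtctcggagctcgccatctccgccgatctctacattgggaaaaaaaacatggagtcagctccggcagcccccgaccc
Nfil3: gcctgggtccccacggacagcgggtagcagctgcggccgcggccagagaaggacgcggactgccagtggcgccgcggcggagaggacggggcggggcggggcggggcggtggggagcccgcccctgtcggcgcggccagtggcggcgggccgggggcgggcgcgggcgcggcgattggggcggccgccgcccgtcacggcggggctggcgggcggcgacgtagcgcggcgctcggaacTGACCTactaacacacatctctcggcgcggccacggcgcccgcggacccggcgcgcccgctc
Tox2: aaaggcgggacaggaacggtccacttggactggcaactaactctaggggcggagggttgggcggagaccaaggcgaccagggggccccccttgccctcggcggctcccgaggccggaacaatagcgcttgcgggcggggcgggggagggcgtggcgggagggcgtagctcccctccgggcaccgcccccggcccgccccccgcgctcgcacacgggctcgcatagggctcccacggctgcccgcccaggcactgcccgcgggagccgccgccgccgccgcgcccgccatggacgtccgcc

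The windows of Rora and Tox2 held none of these letters (0 matches each). Nfil3 held 1, AGGTCA on the opposite strand. Of 32817 promoter windows, 16.3% hold AGGTCA, 0.119% TTACGTAA, 1.27% AGGTGTGA, 16.8% TGTGGT, 16.0% CTTTGA and 11.2% AGATAA. GC content was 60.3% for Rora, 81.7% for Nfil3 and 77.0% for Tox2, against a median of 52.7%.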

How the data were processed

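The authors deposited a count of UMIs per gene and barcode for 6 sci-RNA-seq3 libraries, unfiltered and not normalized. The genome build mm9 is named in the submitters' processing notes, and the aligner is not given in the sources used here. Of the barcodes, 60671 passed the limits on genes (200 or more), UMIs (2000 or fewer) and mitochondrial share (30% or less), and 2052 with 3 or more collagen UMIs were left out. UMIs were summed per library and well and divided by the total over 13599 genes found in at least 15 cells. Ratios have exact conditional binomial intervals and ratios to expected UMIs exact Poisson intervals, at 95%, for counting error only. Ratios to expected UMIs were standardised within library. The work ran in Python 3.11.15 with scipy 1.17.1, and edgeR 4.0.16 gave the TMM sizes of 1 alternative. The code was tried on simulated data. Alternatives were other limits on genes, UMIs, mitochondrial and collagen UMIs, other totals, a mean over cells, other marker gates, and leaving out wells or libraries. Named genes were the 6 members, fixed lists and, for members with 100 UMIs or more, the 5 genes most enriched in their cells among genes with 50 UMIs there. A cell joined a marker class at 2 UMIs of its list (22 ILC and NK, 6 T and 12 myeloid genes), and cells past more than 1 list were set apart as mixed. Lists of B-cell and of mast and megakaryocyte markers were read as levels only. Doublets were not called. The members and lists were chosen with earlier results of these data known. No cell clusters were rebuilt.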

Additional observations from a re-analysis of the deposited data

Results flagged for a closer look

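With 1 library per condition, a result was set aside where the same contrast had opposite signs in different groups. None of these differences was tested.

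The ΔTE/WT log2 ratio for Rora was -0.0240 after DN1 and 0.50 after DN2a and 0.54 after DN2b, so DN1 lay on the other side of 0. The DN1 interval includes 0, and over the alternatives the DN1 ratio ran from -0.26 to 0.43, the latter with at most 20% mitochondrial UMIs.

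From DN1 to DN2a, the log2 ratio of Tox was -0.00982 in WT and 0.25 in ΔTE. From DN2a to DN2b, that of Nfil3 was -0.30 in WT and 0.0949 in ΔTE, from 16 and 25 UMIs in the DN2b libraries, and both Nfil3 intervals include 0. Over the alternatives Nfil3 ran from -0.61 to 0.11 in WT and from -0.0987 to 0.60 in ΔTE, and Tox in WT from -0.17 to 0.0197, so these signs were not fixed.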

How the results depend on the processing

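No paired analysis was possible because each condition is 1 library and the labels carry no replicate numbers. Of 144 alternative values of the ΔTE to WT ratios, 132 stayed within the counting interval of the value reported, as did 172 of 192 between stages, 60 of 66 within classes and 23 of 36 ratios of the marker class to unmarked cells. No ratio whose interval excluded no change turned its direction in any of them. Causes of the shifts were not tested.

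Keeping collagen cells took the Rora ratio after DN2a to 0.16 and from DN2a to DN2b in WT to 0.93. For Tox it gave -0.10 (WT, DN1 to DN2a), 0.44 (WT, DN2a to DN2b) and 0.19 (ΔTE, DN1 to DN2a). Leaving out all cells with a collagen UMI gave 1.64 for Rora from DN2a to DN2b in WT. With 300 genes per cell, Rora after DN2a was 0.27 and the Nfil3 class ratio 1.88.

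With at most 20% mitochondrial UMIs, the ΔTE to WT ratio was 0.43 (Rora, DN1), 0.0917 (Rora, DN2b), 0.25 (Tox, DN2a) and 0.71 (Tox2, DN2b). Between stages it was 2.06 for Rora and 0.57 for Tox (WT, DN2a to DN2b), 0.0864 for Tox (ΔTE, DN1 to DN2a), and 0.53 for Tox and 0.62 for Tox2 (ΔTE, DN2a to DN2b). Genes past 1.5-fold higher after DN2a then numbered 307 against 194.

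Scaling moved the DN2a comparison. Without mitochondrial UMIs in the total, Tox after DN2a was 0.46, and in WT -0.16 (DN1 to DN2a) and 0.52 (DN2a to DN2b). With TMM sizes these were 0.49, -0.17 and 0.55. Genes past 1.5-fold after DN2a were 194 higher and 695 lower in the values reported (21.8% higher), 301 and 445 without mitochondrial UMIs (40.3%) and 320 and 422 with TMM (43.1%), and the median log2 ratio went from -0.15 to -0.02 and 0.01.

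Leaving out 1 well at a time gave 0.17 to 0.49 for Tox after DN2a, 0.40 at most for Tox after DN2b, 1.24 to 1.81 for Rora in ΔTE from DN1 to DN2a, and for Tox in ΔTE 0.0857 to 0.41 (DN1 to DN2a) and 0.12 to 0.44 (DN2a to DN2b). Leaving out 1 library gave class ratios of 1.14 to 1.196 for Tox and 1.79 to 2.39 for Tox2. Without cells with Il2rb or Icos, a choice made after seeing the data, Tox was 0.13 after DN2b and 0.15 in ΔTE from DN2a to DN2b.

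The class ratio followed the gate, which also sets the unmarked cells used as reference. It was 1.38 for Rora and 1.13 for Tox at 1 UMI, 1.89 and 1.24 for 2 different genes, and 2.21 and 1.31 without Gzma and Gzmb. With Il2rb or Icos it was 9.09 for Rora, 3.01 for Nfil3, 2.82 for Tox and 5.95 for Tox2. Within the class without Gzma and Gzmb, the ΔTE to WT ratio was 0.94 for Rora (DN2b), 1.84 (DN1) and 0.22 (DN2a) for Nfil3, and 0.29, 0.48 and 0.71 for Tox (DN1, DN2a and DN2b).

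The order of genes in cells with a member also depended on the floor. With at least 5 expected UMIs in place of 50 UMIs in the member's cells, a choice made after seeing the data, 2 of the 5 leading genes were the same for Rora, 3 for Tox, 3 for Tox2 and 0 for Nfil3.

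With a floor of 50 UMIs expected at the WT level, also chosen after seeing the data, the members and the 23 regulators past 1.5-fold between genotypes were the same at each stage. The NK and ILC1 effector genes past it went from 4, 4 and 7 to 2, 1 and 3 after DN1, DN2a and DN2b.

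Depth limits Tbx21 and Eomes, with 38 and 13 UMIs, and Tox2 and Nfil3 in single wells. For Tbx21 and Eomes the class ratio also followed the gate. In place of 1.08 (0.557 to 1.88) and 2.30 (0.923 to 4.73), it was 2.39 (1.03 to 4.71) for Tbx21 and 10.7 (4.29 to 21.99) for Eomes without Gzma and Gzmb, from 8 and 7 UMIs. With 2 different genes it was 1.17 (0.536 to 2.23) and 4.16 (1.67 to 8.57).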

Other observations

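Lists of other cell types were summed in the same cells. The 5 B-cell markers reached 60.1 CPM in WT DN2a, led by Ebf1 at 43.3, and 17.7 to 29.2 in the other libraries. The 4 mast-cell and megakaryocyte markers, led by Cpa3, reached 479 to 874, with Pf4 at 0 UMIs in both DN2b libraries. The 12 myeloid markers stood at 492 in WT DN1 and 345 in ΔTE DN1 against 36.5 to 93.3 elsewhere. The 6 T markers stood at 103, 437 and 717 in WT DN1, DN2a and DN2b and at 43.5, 206 and 589.8 in ΔTE, lower in ΔTE at each stage.

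Barcodes above 2000 UMIs, which the filter removes, numbered 11 to 85 per library without collagen cells. Rora in them was at 281 (128 to 533) CPM in ΔTE DN2b, from 9 UMIs in 11 barcodes, and at 69.1 (25.3 to 150.3) in WT DN2b, from 6. It was at 29.9 and 23.7 in WT DN1 and DN2a and at 38.9 and 41.3 in ΔTE DN1 and DN2a. The intervals of the genotypes overlapped after each sorted stage.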
